A study of Mus musculus with 6 samples.

Results

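Genes of the neutrophil granules, of receptors that neutrophils carry late in maturation, and of the stefin A cluster were followed in peritoneal macrophages with and without FOXO3. The 38 genes were matched by symbol in the deposited table of 54648 gene symbols, of which 31439 had a count in any library. They were read in 4 classes: 4 azurophil granule genes, 13 specific and gelatinase granule genes, 15 late receptor genes (a class that also holds secreted and non-coding products of mature cells) and 6 stefin A cluster genes. All 38 were in the table with at least 1 count, so none was dropped. The genes were picked with the comparison of FOXO3 KO and WT in these libraries already known, and 8 of them (Stfa1, Mrgpra2b, Asprv1, Chil1, Olfm4, Cxcr2, Il1f9 and Il1r2) belong to a panel the study drew from the same libraries. Their differences between the groups are therefore given as a description only.

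Total RNA of peritoneal cells, mostly macrophages, was sequenced in 3 WT and 3 FOXO3 KO libraries from male and female C57BL/6 mice at 6 to 8 weeks of age. All mice had received thioglycollate, an irritant that draws leukocytes into the peritoneal cavity, and the cells were collected days later. FOXO3 KO mice were homozygous for a knockout that the sources do not limit to any cell type, and WT mice were identified by genotyping of littermates. Nothing in the sources says whether a library came from 1 mouse or from a pool, so the spread given here is that between libraries, which may in part be technical.

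Neutrophils build their granules in order while they mature. Azurophil granules, with myeloperoxidase and the serine proteases, are filled in promyelocytes, specific and gelatinase granules later, and the receptors for chemokines, formyl peptides and interleukin 1 appear on cells ready to leave the marrow. Stefins A are small inhibitors of cysteine cathepsins, and in the mouse they form a cluster of near copies that is expressed in the neutrophil lineage. Neutrophils enter the peritoneum within hours of thioglycollate and are largely replaced by macrophages in the following days.

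Libraries held between 28083572 and 36424331 counts. Expression is given as CPM, counts relative to a library size scaled by edgeR's TMM factors (0.936 to 1.10). Foxo3 itself was 73.1 to 117 CPM in the WT libraries, and 4.71 and 4.29 CPM in FOXO3 KO 1 and 3. In the library labelled FOXO3 KO 2 it was 104 CPM, within the WT range, so fitted values without that library are given beside the main ones. WT 3 stood apart from all others, with Pearson's r of log2 expression across genes of 0.917 to 0.951 against 0.98 to 0.990 for the remaining pairs. The 12 macrophage markers together reached 15119 to 20144 CPM in every library, of which Lyz2 alone gave 7746 to 11429 CPM. Single markers were less even: WT 3 was the lowest library for 8 of the 12 and the highest for 4. Cd68 was 525 CPM in WT 3 against 990 to 1472 CPM elsewhere, and Adgre1 was 920 CPM against 693 to 832 CPM. In bulk RNA, a difference in the number of cells of a type cannot be told apart from one in the RNA per cell.

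The 6 stefin A members lie within chr16:36156811-36455392 (GRCm38, GENCODE M21), a span of 299 kb with 9 coding genes, of which 3 (Gm5416, 2010005H15Rik and BC117090) are not members. In order they are Stfa2l1, Gm5483, Stfa1, BC100530, Stfa2 and Stfa3, with 3 on each strand. RefSeq promoters of GRCm38.p6 were found for 33 of the 38 genes and for 5 of these 6; none was matched for BC100530. Over 300 bases, the 5 promoters were 71.1% to 92.9% identical in pairs, the closest being Stfa2 and Stfa2l1. Stretches of 130 bases, from 110 before the first transcribed base to 20 from it on, are shown because all 5 hold the same 4 runs of at least 10 bases, 46 bases together, which are in capitals. The stretches are chr16:36156701-36156830 (plus strand), chr16:36408344-36408473 (minus), chr16:36277038-36277167 (plus), chr16:36184102-36184231 (plus) and chr16:36455373-36455502 (minus).
Stfa2l1: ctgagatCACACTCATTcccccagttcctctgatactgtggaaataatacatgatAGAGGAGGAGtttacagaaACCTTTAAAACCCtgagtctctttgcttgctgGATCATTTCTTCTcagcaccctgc
Stfa2: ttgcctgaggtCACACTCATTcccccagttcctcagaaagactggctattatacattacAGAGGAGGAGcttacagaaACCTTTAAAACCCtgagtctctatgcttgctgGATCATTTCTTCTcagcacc
Stfa1: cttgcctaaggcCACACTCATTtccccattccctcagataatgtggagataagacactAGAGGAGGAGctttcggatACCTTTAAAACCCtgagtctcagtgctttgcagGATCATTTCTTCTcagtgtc
Gm5483: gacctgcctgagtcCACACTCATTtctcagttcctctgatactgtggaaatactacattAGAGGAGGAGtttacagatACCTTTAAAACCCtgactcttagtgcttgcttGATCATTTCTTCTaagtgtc
Stfa3: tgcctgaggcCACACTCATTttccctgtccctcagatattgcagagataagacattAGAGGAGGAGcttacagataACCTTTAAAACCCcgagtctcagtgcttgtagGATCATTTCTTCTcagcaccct
The run ACCTTTAAAACCC, which begins 33 bases before the start of Stfa1, was in 8 of 27025 promoters (0.0296%) on either strand, 3 of them not of these genes. GATCATTTCTTCT, which begins at the first transcribed base of Stfa1 in RefSeq, was in 9 promoters (0.0333%), 4 of them not of these genes. Starts differ between annotations. In GENCODE M21 Stfa1 begins at 36276951, before the stretch shown, so its runs lie within the bounds of that gene. Stfa2, on the minus strand, begins there at 36408457, also upstream of its RefSeq start. The shorter runs CACACTCATT and AGAGGAGGAG were in 0.111% and 0.999% of promoters. None of the 5 held the letters TATAAA, which 14.2% of all promoters hold. Gm5416, which lies in the same cluster but is not a member, is among the other promoters for both runs of 13 bases. A run was defined as present in all 5 promoters, so Stfa3 carries the same 4 as the others by definition. Whether the runs bear on the levels was not tested.

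Per kb of exon, Stfa2l1 was the highest of the 6 in FOXO3 KO 1 and 3, at 26.7 and 14.7 CPM per kb. It had 0, 1 and 0 counts in WT 1, 2 and 3 and 315, 5 and 205 in FOXO3 KO 1, 2 and 3. Its summed level in FOXO3 KO was 591 times that in WT (exact 95% interval of the ratio 106 to 23398, for counting error only), and 846 times without the library labelled FOXO3 KO 2 (151 to 33490). The single WT count sets the width of these intervals. Gm5483, a further cystatin-like gene, had 4, 4 and 6 counts in WT and 156, 7 and 110 in FOXO3 KO, or 0.111, 0.141 and 0.168 against 5.53, 0.255 and 3.30 CPM. Gm5483 did not pass edgeR's filter on low counts over all 6 libraries. Without the library labelled FOXO3 KO 2 it passed through its counts in FOXO3 KO 1 and 3. Its fitted log2 difference there, 4.94 (standard error 0.42), is a description only.

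Stfa1, Stfa2 and BC100530 had 0 counts in each WT library. Stfa1 had 44, 0 and 32 counts in FOXO3 KO 1, 2 and 3, Stfa2 had 14, 0 and 10, and BC100530 had 18, 2 and 13. Against a floor of 3 counts over the WT group, the summed level in FOXO3 KO was 28.5 times the floor for Stfa1. It was 9.01 times for Stfa2 and 12.4 times for BC100530. Without the library labelled FOXO3 KO 2 these ratios were 41.2, 13 and 16.8. They take the FOXO3 KO counts as exact, so they are no lower bounds. The first 3 ratios also pool FOXO3 KO 2, which had 0 counts of Stfa1 and Stfa2. All 5 of these genes were thus high in FOXO3 KO 1 and 3 and at or near 0 in the other 4 libraries. Summed over the 5, expression was 0.111 to 0.176 CPM in WT, 19.4 CPM in FOXO3 KO 1, 11.1 CPM in FOXO3 KO 3 and only 0.51 CPM where FOXO3 KO 2 is the label.

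These 5 genes had nearly the same proportions in FOXO3 KO 1 and 3. The level in FOXO3 KO 1 was 1.63 to 1.82 times that in FOXO3 KO 3 for each of them. Near copies can share reads: of all 31-base words in the transcripts, 43.8% for Stfa1, 33.3% for Stfa2, 41.6% for Stfa2l1, 51.8% for BC100530 and 21.6% for Gm5483 also occurred in another gene. Non-whole estimates, as arise when reads are divided among genes, were found for each of the 5. How much of the likeness comes from divided reads was not tested.

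Stfa3 went another way. It had 12, 12 and 8 counts in WT and 42, 82 and 58 in FOXO3 KO, or 0.332, 0.423 and 0.224 against 1.49, 2.99 and 1.74 CPM. The groups did not overlap, and the library labelled FOXO3 KO 2 was the highest and not the lowest of its group. Its log2 difference was 2.66 (standard error 0.42) over all 6 libraries and 2.30 without the library labelled FOXO3 KO 2. No 31-base word of Stfa3 occurred in another gene and all its counts were whole before rounding. Stfa3 made up 85.4% of the counts of the 6 members in the library labelled FOXO3 KO 2 (95% Wilson interval 77.0 to 91.1), against 7.13% (5.32 to 9.50) in FOXO3 KO 1 and 13.6% (10.6 to 17.1) in FOXO3 KO 3. In WT its share was 57.1% to 75.0% of 14 to 17 counts. Stfa2l1 made up 53.5% (49.4 to 57.5) in FOXO3 KO 1, 47.9% (43.2 to 52.6) in FOXO3 KO 3 and 5.21% (2.24 to 11.6) in the library labelled FOXO3 KO 2.

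**Figure D1:**
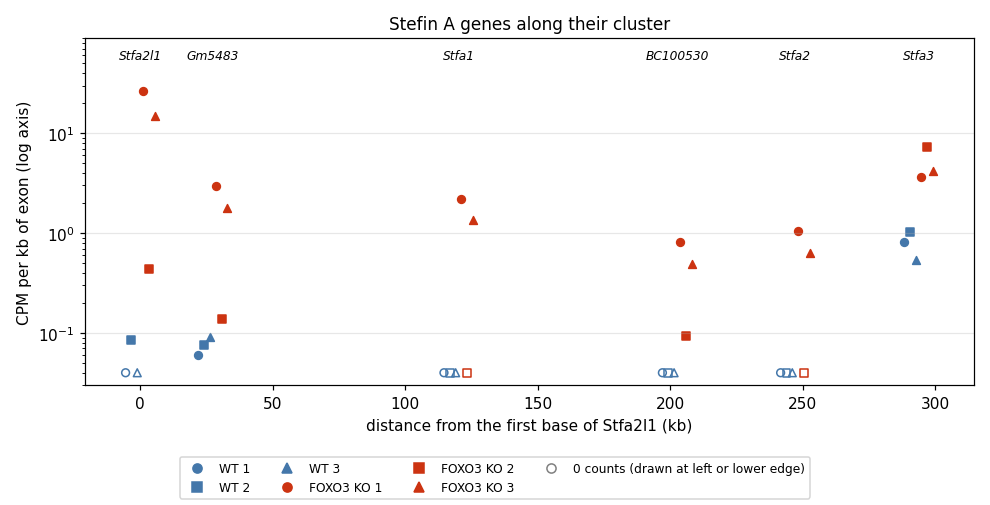
Level of the 6 stefin A members in each library (points, CPM per kb of exon, log axis) against distance along the cluster from the first base of Stfa2l1 (kb); open points are 0 counts, drawn at the lower edge. At 5 of the 6 genes FOXO3 KO 1 and 3 lie above the other 4 libraries, while at Stfa3 the library labelled FOXO3 KO 2 is the highest at 7.26 CPM per kb.

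Of the other genes of the cluster and its family, Gm5416 had 0, 0 and 0 counts in WT and 15, 0 and 15 in FOXO3 KO, and 2010005H15Rik had 5, 12 and 2 against 43, 30 and 62. BC117090 had 1 count in all, Gm4758 had 0, and Csta1 had 3, all in WT 3. Among the cathepsins, which stefins inhibit, and other cystatins, the 8 listed genes summed to 8073 to 23360 CPM, with a median log2 difference of 0.10. Ctsb was lowest in WT 3 at 3529 CPM, and 7576 to 11172 CPM in the other libraries. Of the 8, only Ctsc had groups that did not overlap, at 332, 332 and 411 CPM in WT against 441, 450 and 575 CPM in FOXO3 KO. Its log2 difference was 0.45 (standard error 0.17), or 0.51 without the library labelled FOXO3 KO 2. Groups stood apart with FOXO3 KO higher in 5.75% of genes with a count, and with FOXO3 KO lower in 4.15%. Nothing is therefore read from 1 gene of 8. The cystatin genes Cst3 and Cstb, which code for cystatin C and stefin B, had log2 differences of -0.10 (standard error 0.21) and 0.20 (standard error 0.45), or -0.12 and 0.15 without the library labelled FOXO3 KO 2. None of the 8 was called by edgeR or DESeq2.

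In the azurophil class, transcripts of the granule's best known proteins were near 0 in every library. Mpo, which codes for myeloperoxidase, had 1, 0 and 6 counts in WT and 1, 1 and 3 in FOXO3 KO. Elane, the neutrophil elastase gene, had at most 2 counts in any library. Ctsg, which codes for the serine protease cathepsin G, was flat at 0.354 to 0.438 CPM across the 6 libraries, with a log2 difference of 0.05 (standard error 0.27), or 0.00 without the library labelled FOXO3 KO 2.

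Prtn3, which codes for proteinase 3, was the exception in this class. WT 1, 2 and 3 had 71, 87 and 1486 counts (1.97, 3.07 and 41.5 CPM), while FOXO3 KO 1, 2 and 3 had 276, 226 and 609 counts (9.78, 8.25 and 18.3 CPM). WT 3 was the highest library, the other WT libraries were the lowest, and the groups overlapped. The log2 difference was -0.36 (standard error 1.13), or -0.14 without the library labelled FOXO3 KO 2 and 2.28 without WT 3. Prtn3 lies 3072 bases from Elane, in the same direction on chr10:79874476-79888215, with no coding gene between them. Per kb of exon, Prtn3 was 1.14 to 24.0 CPM and Elane 0 to 0.0717 CPM, so neighbouring genes of the same class differed in every library. Prtn3 also overlaps the coding gene Plppr3 on the opposite strand, and 7.48% of its 31-base words are shared with it. Plppr3 had 125, 99 and 195 counts in WT and 136, 132 and 256 in FOXO3 KO, a narrower range than that of Prtn3.

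The promoters of Prtn3 and Elane are shown over chr10:79879557-79879686 and chr10:79886202-79886331 (both plus strand, 130 bases, RefSeq, GRCm38.p6), because neighbours so unlike in level both hold AGGAAGT, a word bound by PU.1 and other ETS factors, which is in capitals.
Prtn3: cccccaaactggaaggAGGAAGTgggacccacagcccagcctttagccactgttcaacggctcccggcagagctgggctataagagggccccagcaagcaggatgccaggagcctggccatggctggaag
Elane: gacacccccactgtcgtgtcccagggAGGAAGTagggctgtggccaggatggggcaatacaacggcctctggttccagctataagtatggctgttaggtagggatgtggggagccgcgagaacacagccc
GENCODE M21 begins Prtn3 at 79874476 and Elane at 79886247, both upstream of the RefSeq starts used here. The word begins 94 bases before the RefSeq start of Prtn3 and 84 before that of Elane. It was searched on both strands in 300 bases of each promoter and was found for 4 of the 4 azurophil genes, 3 of 11 specific and gelatinase granule genes, 3 of 13 late receptor genes and 0 of 5 stefin A genes, against 9.57% of all 27025 promoters. The C/EBP word TTGCNNAA was found in 0 of 4, 5 of 11, 2 of 13 and 1 of 5, against 10.8% of all promoters. TATAAA was found in 1 of 4, 3 of 11, 4 of 13 and 0 of 5. Spi1, which codes for PU.1, was 148 CPM in WT 3 and 239 to 280 CPM in the other libraries.

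The specific and gelatinase granule class held genes with several orders of the libraries. Chil1 and Olfm4, which code for a chitinase-like protein and for olfactomedin 4, were high in FOXO3 KO 1 and 3 only. Chil1 had 1, 9 and 1 counts in WT and 117, 8 and 97 in FOXO3 KO, or 4.15, 0.292 and 2.91 CPM in FOXO3 KO 1, 2 and 3. Olfm4 had 1, 3 and 3 counts in WT and 49, 2 and 42 in FOXO3 KO. For both, the library labelled FOXO3 KO 2 lay within the WT range. Neither passed edgeR's filter on low counts over all 6 libraries. Without that library both passed, through their counts in FOXO3 KO 1 and 3. The fitted log2 differences were then 4.87 (standard error 0.99) for Chil1 and 4.33 (standard error 0.54) for Olfm4.

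Lcn2, which codes for lipocalin 2, a protein that binds bacterial siderophores, was 4.02, 6.03 and 2.52 CPM in WT against 10.3, 7.30 and 7.08 CPM in FOXO3 KO. Its groups did not overlap, and its log2 difference was 0.97 (standard error 0.36), or 1.05 without the library labelled FOXO3 KO 2. Ltf, the lactoferrin gene, was 0.582, 0.882 and 0.335 CPM in WT against 1.52, 0.365 and 1.08 CPM in FOXO3 KO, so that the library labelled FOXO3 KO 2 lay among the WT libraries. Its log2 difference was 0.73 (standard error 0.60), or 1.12 without that library.

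The collagenase gene Mmp8 and the gelatinase gene Mmp9 were lowest in the same WT library. Mmp8 was 12.2, 15.9 and 3.08 CPM in WT against 18.4, 14.6 and 11.9 CPM in FOXO3 KO. Mmp9 was 40.7, 29.9 and 11.2 CPM in WT against 36.1, 37.5 and 39.0 CPM in FOXO3 KO. WT 3 was lowest for both, and WT 1 and 2 overlapped the FOXO3 KO libraries. The log2 differences were 0.52 and 0.46, with standard errors of 0.56 and 0.43. They were 0.54 and 0.46 without the library labelled FOXO3 KO 2, and 0.10 for each without WT 3.

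Several genes of secreted proteins were highest in WT 3. Lrg1, which codes for leucine-rich alpha-2-glycoprotein, was 1.61, 0.882 and 121 CPM in WT against 21, 4.23 and 28.7 CPM in FOXO3 KO. Slpi, which codes for an inhibitor of neutrophil elastase that macrophages also make, was 91.2, 58.7 and 340 CPM in WT against 54.6, 85.3 and 39.5 CPM in FOXO3 KO. Hp, which codes for haptoglobin, a binder of free haemoglobin, was 11.4, 16.3 and 68.6 CPM in WT against 45.4, 22.7 and 62.2 CPM in FOXO3 KO. In all 3 genes WT 3 was the highest library and the groups overlapped. Log2 differences were -1.19 (standard error 1.73) for Lrg1, -1.45 (standard error 0.69) for Slpi and 0.43 (standard error 0.73) for Hp. They were -0.72, -1.79 and 0.75 without the library labelled FOXO3 KO 2. WT 3 decided these values, since without it they were 3.84 (standard error 0.88), -0.32 (standard error 0.33) and 1.66 (standard error 0.43). Beside them, the 8 B cell markers summed to 5551 CPM in WT 3 and 358 to 1472 CPM elsewhere, and the 6 mast cell markers to 776 CPM in WT 3 and 99.6 to 291 CPM elsewhere; their part in these levels was not tested.

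The rest of this class differed little between the groups or was hardly measured. Pglyrp1, which codes for a peptidoglycan recognition protein, and Cd177, which codes for a surface glycoprotein, were 4.04 to 9.84 and 2.43 to 5.94 CPM over all libraries, with log2 differences of -0.31 (standard error 0.32) and 0.01 (standard error 0.39). These were -0.33 and 0.18 without the library labelled FOXO3 KO 2, and -0.02 and 0.26 without WT 3. Camp, the cathelicidin gene, had 2 counts in all, 1 in WT 2 and 1 in FOXO3 KO 1. Ngp, which codes for neutrophilic granule protein, had 7 counts in WT 2, 1 and 3 in FOXO3 KO 2 and 3, and 0 elsewhere.

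**Figure D2:**
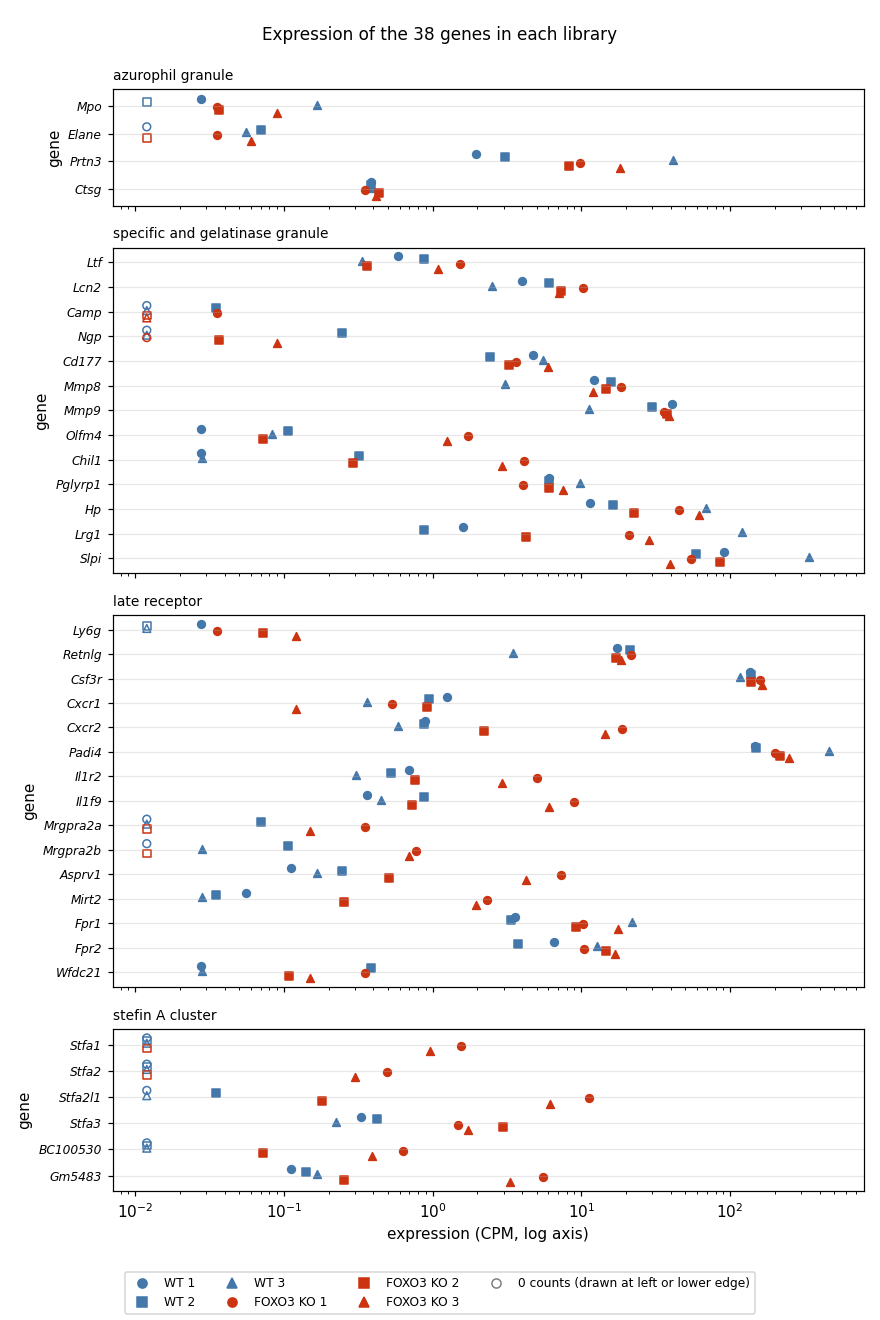
Expression of the 38 genes (CPM, log axis) in each library, by class; blue points are WT, red points FOXO3 KO, the shape gives the replicate number, and open points at the left edge are 0 counts. Cxcr2, Il1r2, Il1f9, Asprv1 and Mirt2 and 5 of the 6 stefin A genes are highest in FOXO3 KO 1 and 3, while Prtn3, Lrg1, Slpi and Padi4 are highest in WT 3.

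Among the late receptor genes, Cxcr2 and Cxcr1, receptors for the chemokines that call neutrophils to tissue, went apart. Cxcr2 was 0.886, 0.882 and 0.587 CPM in WT against 18.7, 2.23 and 14.4 CPM in FOXO3 KO, and the groups did not overlap. Cxcr1 was 1.25, 0.953 and 0.363 CPM in WT against 0.531, 0.912 and 0.120 CPM in FOXO3 KO, with overlap. The log2 differences were 3.90 (standard error 0.80) and -0.72 (standard error 0.75), or 4.40 (standard error 0.30) and -1.40 without the library labelled FOXO3 KO 2. The genes are neighbours at chr1:74153989-74194631, 30538 bases apart. Per kb of exon, the ratio of Cxcr2 to Cxcr1 was 0.347, 0.452 and 0.794 in WT, 17.2 and 58.6 in FOXO3 KO 1 and 3, and 1.2 in the library labelled FOXO3 KO 2. Cxcr1 had only 45, 27 and 13 counts in WT 1, 2 and 3 and 15, 25 and 4 in FOXO3 KO 1, 2 and 3. The sizes of these ratios are therefore uncertain, above all in FOXO3 KO 3. Of the ligands of these receptors, Cxcl1 was 3.28 to 4.13 CPM in WT against 3 to 5.44 CPM in FOXO3 KO, and Cxcl2 was 10.1 to 11.6 and 9.68 to 17.6 CPM. Cxcl5 was 0.111 to 0.176 CPM in WT against 0.461, 0.839 and 0.57 CPM in FOXO3 KO, so its groups stood apart, with a log2 difference of 2.11 (standard error 0.39), or 1.84 without the library labelled FOXO3 KO 2. Ppbp had 7, 5 and 4 counts in WT and 21, 3 and 10 in FOXO3 KO, while Cxcl3 was highest in WT 2.

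Il1r2 and Il1f9 were, like Cxcr2, highest in FOXO3 KO 1 and 3. Il1r2, which codes for the decoy receptor of interleukin 1, was 0.692, 0.529 and 0.308 CPM in WT against 5.03, 0.766 and 2.94 CPM in FOXO3 KO. Il1f9, the gene of interleukin 36 gamma, was 0.360, 0.882 and 0.447 CPM in WT against 9, 0.73 and 6.06 CPM in FOXO3 KO. The groups did not overlap for Il1r2, while the library labelled FOXO3 KO 2 lay within the WT range for Il1f9. Log2 differences were 2.51 (standard error 0.72) and 3.23 (standard error 0.92), or 2.96 and 3.74 without the library labelled FOXO3 KO 2. Il1b, whose product Il1r2 captures, was 4.54, 7.34 and 3.58 CPM in WT against 29.1, 8.76 and 26.7 CPM in FOXO3 KO, and Il1a was 8.47 to 34.2 CPM in WT against 24.1 to 42.9 CPM in FOXO3 KO, with overlap and its highest value in the library labelled FOXO3 KO 2.

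Asprv1, which codes for a retroviral-like aspartic protease, was 0.111, 0.247 and 0.168 CPM in WT against 7.30, 0.511 and 4.26 CPM in FOXO3 KO, with a log2 difference of 4.51 (standard error 1.01), or 5.03 without the library labelled FOXO3 KO 2. Mirt2, a long non-coding RNA, had 2, 1 and 1 counts in WT and 66, 7 and 65 in FOXO3 KO. For both, every FOXO3 KO library lay above every WT library, by far in FOXO3 KO 1 and 3. Mirt2 is annotated antisense to the coding gene Spatc1, with which it shares 10.3% of its 31-base words. Spatc1 had 0, 0 and 0 counts in WT and 3, 0 and 4 in FOXO3 KO.

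Mrgpra2a and Mrgpra2b, genes of Mas-related G protein-coupled receptors, are near copies at chr7:47426328-47528862, and 92.4% and 87.0% of their 31-base words occur in another gene. Mrgpra2b had 0, 3 and 1 counts in WT and 22, 0 and 23 in FOXO3 KO, and Mrgpra2a had 0, 2 and 0 against 10, 0 and 5. The level of Mrgpra2a in FOXO3 KO was 8.45 times that in WT (exact 95% interval 1.96 to 76.1), and 12.2 times without the library labelled FOXO3 KO 2 (2.84 to 110). Which of the pair a read came from is uncertain: for each, 3 of its 4 estimates above 0 were not whole, as arises when reads are divided among genes.

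Over all 6 libraries, Csf3r, Fpr1, Fpr2 and Padi4 had smaller log2 differences than Cxcr2, Il1r2, Il1f9 and Asprv1. Csf3r, the receptor of granulocyte colony-stimulating factor, was 137, 139 and 116 CPM in WT against 159, 139 and 164 CPM in FOXO3 KO, with a log2 difference of 0.24 (standard error 0.12), or 0.31 without the library labelled FOXO3 KO 2. Its groups did not overlap, but by a narrow gap between WT 2 and the library labelled FOXO3 KO 2. Fpr1 and Fpr2, receptors of formylated bacterial peptides that lie 3883 bases apart at chr17:17876471-17893952, were 3.39 to 21.9 and 3.74 to 12.8 CPM in WT against 9.23 to 17.6 and 10.4 to 16.9 CPM in FOXO3 KO. Fpr1 was highest in WT 3. Padi4, which codes for the enzyme that citrullinates histones in neutrophil extracellular traps, was 147, 149 and 465 CPM in WT against 199, 215 and 250 CPM in FOXO3 KO, so that WT 1 and 2 were the lowest and WT 3 the highest. Log2 differences of Fpr1, Fpr2 and Padi4 were 0.35 (standard error 0.78), 0.85 (standard error 0.46) and -0.20 (standard error 0.47). Without the library labelled FOXO3 KO 2 they were 0.53, 0.82 and -0.17, and without WT 3 they were 1.84, 1.44 and 0.59.

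Retnlg, which codes for resistin-like gamma, was 17.5, 21.2 and 3.47 CPM in WT against 21.7, 17.0 and 18.4 CPM in FOXO3 KO. WT 3 was the lowest library, and WT 1 and 2 overlapped the FOXO3 KO libraries. Its log2 difference was 0.44 (standard error 0.60), 0.51 without the library labelled FOXO3 KO 2 and -0.01 without WT 3. Ly6g, the surface protein by which mouse neutrophils are usually sorted, had 1, 0 and 0 counts in WT and 1, 2 and 4 in FOXO3 KO. Wfdc21, which codes for a small secreted protein with a whey acidic domain, had 1, 11 and 1 counts in WT and 10, 3 and 5 in FOXO3 KO. In all, 6 members were under 20 counts over the 6 libraries: Ly6g, Camp, Ngp, Mpo, Elane and Mrgpra2a. Retnlg, Mmp8 and Cxcr2 were among those that were not.

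**Figure D3:**
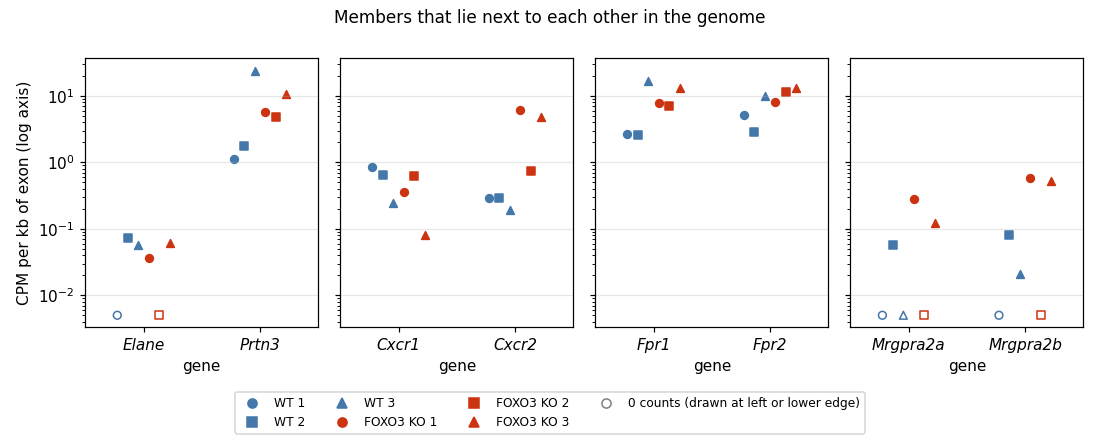
Levels of 4 pairs of neighbouring members in each library (CPM per kb of exon, log axis); blue points are WT, red points FOXO3 KO, and open points are 0 counts, drawn at the lower edge. Prtn3 lies above Elane in every library, and the ratio of Cxcr2 to Cxcr1 is above 1 in each FOXO3 KO library and below 1 in each WT library.

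Over the whole list, every FOXO3 KO library lay above every WT library for 11 of 38 genes and below for 0 of 38, where 5.75% and 4.15% of all 31439 genes with a count did so. By class these were 0 of 4 azurophil, 1 of 13 specific and gelatinase granule (Lcn2), 6 of 15 late receptor and 4 of 6 stefin A genes. Ly6g is among the 6, although WT 1 and FOXO3 KO 1 each had 1 count of it (0.0277 and 0.0354 CPM). Its groups are apart through library size alone, and it is also in the 11 above and the 19 below. Of the 22 genes that passed edgeR's filter on low counts, 6 lay above and 0 below, against 7.0% and 5.36% of the 15608 genes tested. Without the library labelled FOXO3 KO 2, 19 of 38 lay above, against 9.60% of genes with a count; without WT 3, 18 did, against 10.4%. FOXO3 KO 1 and 3 were the 2 highest libraries for 16 of 38 genes, against 5.49%. The members were chosen on this contrast, so nothing is read from these shares. WT 3 was the highest library for 8 of 38 (31.6% of genes with a count) and the lowest for 10 of 38 (21.4%). The last 3 of these patterns were looked for after the values were seen.

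The threshold for a call was an FDR under 0.05 together with a change of more than 1.5-fold. By edgeR's quasi-likelihood test, 0 of the 22 members tested were called higher and 0 lower, as were 0 (0%) of all 15608 genes, the smallest adjusted p being 0.714; at an unadjusted p under 0.05 there were 6 of 22 members and 887 genes. The same test without the library labelled FOXO3 KO 2 called 0 (0%) of 16217 genes, with 698 at an unadjusted p under 0.05 and a smallest adjusted p of 0.105. Foxo3 itself was thus not called in either fit. Its log2 difference was -1.40 (standard error 1.22), or -4.46 (standard error 0.29) without that library. A lack of calls by this test therefore cannot be read as a lack of difference. DESeq2 called 10 of the 37 members it tested higher (Cxcr2, Stfa3, Asprv1, Mirt2, Gm5483, Stfa2l1, Il1f9, Chil1, BC100530 and Il1r2) and 0 lower, against 0.507% and 0.0223% of all genes, and gave no adjusted p for 8. Without the library labelled FOXO3 KO 2 it called 12 higher, Stfa1 and Olfm4 in addition, and 0 lower, against 0.253% and 0.0843%, with no adjusted p for 5. Calls of members are shown for completeness, since the members were chosen on this contrast. Medians of the fitted log2 difference were -0.15 over 2 azurophil genes, 0.43 over 9 specific and gelatinase granule genes and 0.65 over 10 late receptor genes, against -0.01 over all genes tested. Only 1 stefin A gene, Stfa3, passed the filter (2.66). On the log2 scale, a median over the 6 stefin A genes was 4.03, but it mixes measures. Stfa1, Stfa2 and BC100530 entered at their ratio to the floor and Stfa2l1 at its ratio of summed levels. Gm5483 and Stfa3 entered by a fit without filter. The 4.03 is therefore not comparable with the medians of the other classes. Without the library labelled FOXO3 KO 2 the medians were -0.07, 0.54 and 0.83 over 2, 11 and 13 genes. The filter then asks for fewer libraries, which added Chil1 (4.87), Olfm4 (4.33), Mirt2 (5.62), Mrgpra2b (4.04) and Wfdc21 (0.83). All of these but Wfdc21 entered through their counts in FOXO3 KO 1 and 3. The values 0.54 and 0.83 thus rest on other gene sets than 0.43 and 0.65.

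Other genes known from mature neutrophils were compared as a list of 16, which was also set with earlier results known. S100a8 and S100a9, the subunits of calprotectin, had the widest range: S100a8 was 7.89, 11.3 and 2.40 CPM in WT against 83.2, 12.9 and 59.8 CPM in FOXO3 KO, and S100a9 was 0.471, 5.61 and 0.252 CPM against 164, 6.93 and 117 CPM. Trem1, an amplifying receptor of myeloid cells, was 0.914 to 1.06 CPM in WT against 5.70, 2.12 and 5.43 CPM in FOXO3 KO. In 9 of the 16 the groups stood apart with FOXO3 KO higher, against 5.75% of genes with a count. The median log2 difference of 15 tested genes was 0.67, or 0.88 without the library labelled FOXO3 KO 2. Slfn4 was highest in WT 3, at 419 CPM. No gene of the list was called by edgeR, and 4 were called higher by DESeq2, against 0.507% of all genes. Because the list was set with earlier results known, nothing is read from these counts. In the list of 12 precursor and granulopoiesis factor genes, Ms4a3 and Fcnb, markers of neutrophil precursors, were at most 0.112 CPM in any library. Other genes of that list were not near 0. Cd34 was 4.21, 3.42 and 3.91 CPM in WT against 5.35, 22.5 and 6.93 CPM in FOXO3 KO, so its groups stood apart. Its log2 difference was 1.59 (standard error 0.57), or 0.67 without the library labelled FOXO3 KO 2. Flt3 was at least 8.65 CPM and Myb at least 2.12 CPM in every library. Myb was highest in WT 3, with a log2 difference of -1.09 (standard error 0.66). Cebpe, a factor of granule gene expression, was 3.77, 3.74 and 0.895 CPM in WT against 3.65, 3.39 and 6.87 CPM in FOXO3 KO. The median of 10 tested genes of that list was 0.33, or 0.30 without the library labelled FOXO3 KO 2, with 0 called by edgeR or DESeq2. In the list of 10 ligands the median of 7 tested genes was 0.43, or 0.27 over 9 genes without the library labelled FOXO3 KO 2, with 0 called by edgeR and 1 by DESeq2.

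Markers of other cells stood out in the same libraries as some of these genes. The 7 measured red blood cell markers summed to 24.5, 9.70 and 27.0 CPM in WT against 117, 9.23 and 182 CPM in FOXO3 KO, so FOXO3 KO 1 and 3 were the highest libraries here too; 5 of the 7 had counts in every library. The order within that pair differed. Of the 16 members highest in FOXO3 KO 1 and 3, 15 were higher in FOXO3 KO 1 (ratio 0.97 to 2.36), as were S100a8 and S100a9 (1.39 and 1.41). Trem1 (1.05), Il1b (1.09), Ifitm1 (0.99) and Trem3 (0.955) were near 1, whereas 0 of the 5 red blood cell markers compared were (0.442 to 0.666). Among all tested genes highest in these libraries, 48.9% were higher in FOXO3 KO 1. Only 6 of the 16 members were among the tested genes, so that share is no matched background for them. The order rests on 1 pair of libraries and was not tested. Mesothelial markers summed to 6.32, 5.58 and 11.1 CPM in WT against 11.3, 40.8 and 16.5 CPM in FOXO3 KO, and like Stfa3 were highest in the library labelled FOXO3 KO 2. Upk3b, Krt19, Wt1 and Lrrn4 were each highest there. Krt8 was highest in WT 3, at 7.02 CPM against 4.78 CPM in the library labelled FOXO3 KO 2, and so was Msln, at 0.224 CPM. The part of these cells in the members' levels was not tested.

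**Figure D4:**
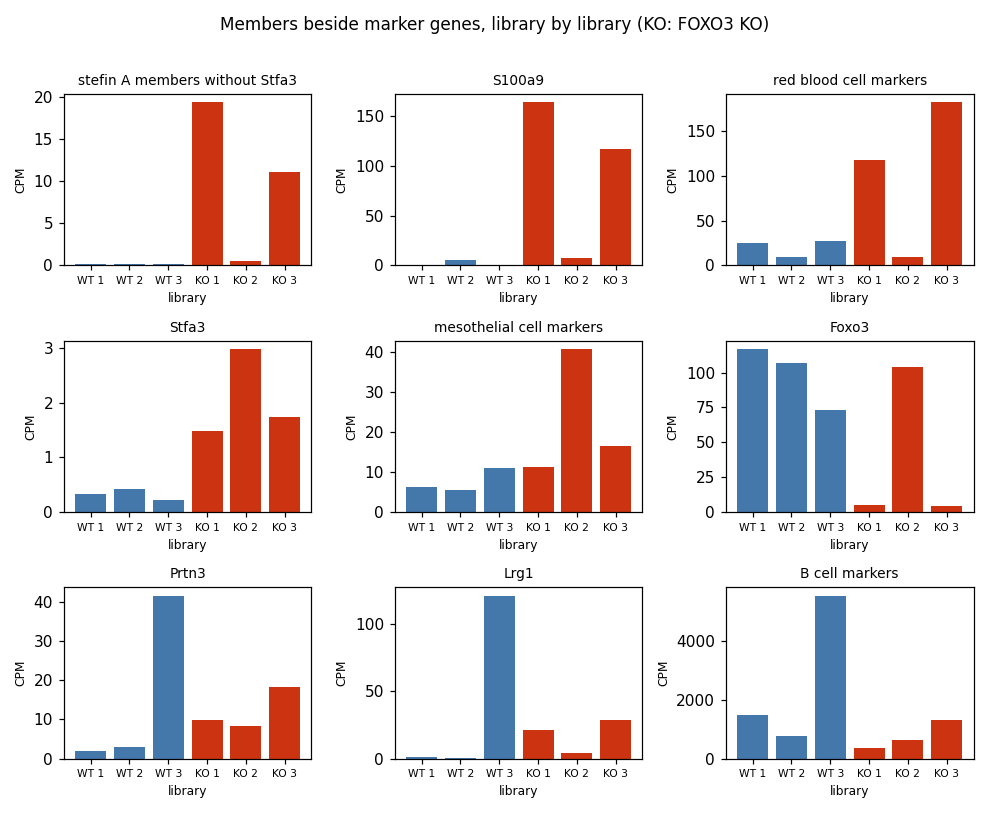
Expression (CPM, bars from 0) in each library of members beside marker genes; marker panels are sums over the list. FOXO3 KO 1 and 3 stand out for the stefin A members without Stfa3, for S100a9 and for red blood cell markers, the library labelled FOXO3 KO 2 for Stfa3 and mesothelial markers, and WT 3 for Prtn3, Lrg1 and B cell markers.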

How the data were processed

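The authors deposited 1 table of estimated counts per gene symbol for the 6 libraries, without normalization; 81.4% of the values, and 59.4% of those above 0, were whole to within 0.01, and the rest were rounded. The submitters' processing notes list STAR 2.6.1d, kallisto 0.46.0, DESeq2 and build mm10, without their roles; no source used here gives the annotation or the strand setting of the counting. Groups and replicate numbers were taken from the sample titles.

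Genes were tested with edgeR 4.0.16 in R 4.3.3 (quasi-likelihood test on 3 WT against 3 FOXO3 KO libraries, filterByExpr, TMM, Benjamini-Hochberg adjustment over all genes tested), which was first tested on simulated counts. CPM was computed on the TMM-scaled size, and CPM per kb on the exon length of GENCODE M21. Chi-square per degree of freedom between any 2 libraries was 13.1 or more, far beyond sampling noise for every pair. Intervals (95%) cover counting error only, and the floor of 3 counts covers that of the WT group only. Python 3.11.15, numpy 2.4.6, pandas 2.3.3, scipy 1.17.1 and matplotlib 3.10.9 were used for the remaining tables and plots.

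The members and all lists were chosen with earlier results of these data known. Named genes are Foxo3, every member, genes of the lists of related genes and of cell type markers (monocyte, eosinophil, and T and NK cell markers among them), and neighbours in the annotation. The alternatives, whose effect is given at the end, were DESeq2 1.42.0, the likelihood ratio test, limma-voom (limma 3.58.1), other scaling, other filters, a replicate block, a covariate for the split by Xist, near-identical copies summed and each library left out.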

Additional observations from a re-analysis of the deposited data

Results flagged for a closer look

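Xist was 871 CPM in WT 3 and 1130 CPM in FOXO3 KO 3, and at most 0.177 CPM in the other 4 libraries, so the libraries fall into 2 sets that both hold WT and FOXO3 KO. These sets were defined from the data. For 5 of the 22 tested members both low-Xist FOXO3 KO libraries lay on one side of both low-Xist WT libraries and the high-Xist pair differed the other way. The difference between the sets was not tested, and the high-Xist set holds 1 library of each group, WT 3 among them. On the log2(CPM + 0.5) scale, FOXO3 KO minus WT was 1.68 in the low-Xist libraries (2 WT, 2 FOXO3 KO) and -1.16 in the high-Xist pair for Prtn3. Lrg1 gave 2.56 and -2.06, Fpr1 gave 1.36 and -0.31, Hp gave 1.2 and -0.14, and Padi4 gave 0.48 and -0.89. In each, both low-Xist FOXO3 KO libraries, including the library labelled FOXO3 KO 2 with Foxo3 at the WT level, lay above both low-Xist WT libraries. By the same rule, with the low-Xist groups apart, these were 22.7% of tested members, against 2016 of all 15608 tested genes (12.9%). Cd177 also differed in sign, but with overlap in the low-Xist set (means of 3.60 CPM in WT and 3.45 CPM in FOXO3 KO, against 5.51 and 5.94 CPM in the high-Xist pair).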

How the results depend on the processing

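Calls over all genes depended on the tool. Against 0 higher and 0 lower in edgeR's quasi-likelihood test, DESeq2 called 159 and 7, the likelihood ratio test 102 and 7, and DESeq2 without the library labelled FOXO3 KO 2 called 78 and 26. In the lists of related genes and markers these 3 fits called 8, 8 and 15 genes higher. All other alternatives called 0, as did each fit with 1 library left out (0 to 0 in both directions, lists included). The cause was not tested.

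The azurophil median, -0.15, turned to 0.44 with limma-voom and with the covariate for the split by Xist, and its range with 1 library left out was -0.43 to 1.18, the highest without WT 3. The specific and gelatinase granule median, 0.43, ranged from 0.09 (without FOXO3 KO 3) to 0.66. The late receptor median, 0.65, was 0.70 to 1.84 (the highest without WT 3) with 1 library left out. The filter then asks for fewer libraries, so the genes behind these medians can differ. The late receptor median was 2.53 with no filter and 2.52 with DESeq2. It was 2.86 with DESeq2 without the library labelled FOXO3 KO 2. These last fits take in members with few WT counts. For the same reason the stefin A median, 2.66 from Stfa3 alone, was 6.34 with no filter, 5.83 with DESeq2, 6.36 with DESeq2 without the library labelled FOXO3 KO 2, and 2.77 to 6.88 with 1 library left out. It was 4.69 with the copies summed, and 6.33 with at least 10 counts in at least 2 libraries, a filter chosen after the data were seen. These fitted values depend on the prior count and are no bounds.

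Members with every FOXO3 KO library above every WT library numbered 11 to 19 with 1 library left out, and those below 0 to 1, against 8.67% to 10.4% and 5.92% to 12.1% of genes with a count. The last was Slpi without WT 2 or without the library labelled FOXO3 KO 2, and Cxcr1 without WT 3, both named after their values were seen. Of 415 alternative values for the 22 tested members, 402 lay within 1 SD of the value given and 19, in 6 members, had the other sign. The SD is the gene's spread between libraries, which WT 3 widened for some members. Most alternatives refit the same counts, so closeness was largely set in advance and nothing is read from the 402. Without WT 3, the log2 difference of Prtn3 moved from -0.36 to 2.28 and that of Hp from 0.43 to 1.66.

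Deviations of same-numbered libraries from their group means correlated at 0.258, -0.0709 and 0.522. FOXO3 KO 3 was closest to WT 3, but FOXO3 KO 1 was closest to WT 2 (0.55). Deviations within a group sum to 0, so these values depend on each other and cannot decide whether the numbers pair the libraries. With the replicate number as a block, edgeR called 0 genes in either direction, and the class medians were 0.45 (azurophil), 0.68, 0.93 and 2.63.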

Other observations

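Of the other fixed marker lists, the 8 T and NK cell markers summed to 69.0, 67.5 and 232 CPM in WT and 46.1, 56.3 and 89.5 CPM in FOXO3 KO. In WT 3, Cd2 alone gave 150 CPM of that sum. WT 3 was the highest library for 5 of the 8 and the lowest for 3 (Ncr1, Klrb1c and Gzma). The 5 monocyte markers summed to 798 to 912 CPM in WT and 808 to 1500 CPM in FOXO3 KO. Their median log2 difference was -0.08, with 2 genes higher and 3 lower. Ccr2, the receptor by which monocytes leave the marrow, was 482, 370 and 218 CPM in WT and 571, 484 and 812 CPM in FOXO3 KO. Log2 differences were 0.80 for Ccr2 and 0.39 for F13a1, against -0.08 for Chil3, -0.25 for Ly6c2 and -1.28 for Plac8. The 6 eosinophil markers summed to 65.5 to 92.9 CPM in WT and 37.4 to 95 CPM in FOXO3 KO. Prg2 and Epx, genes of the eosinophil granule, were at most 0.182 CPM in any library. Of the 92.9 CPM in WT 3, Il5ra gave 80.2 CPM, while Siglecf (3.72 CPM) and Ccr3 (8.92 CPM) were lowest in that library. By edgeR, 0 genes of these lists were called.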
